A study of Homo sapiens with 4 samples.

Results

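The genes examined were 34 members of the NF-kB pathway and its target genes, taken by name from 19974 protein-coding genes of chromosomes 1 to 22 and X, with no threshold on a measured value. For each gene, the RNA polymerase II (Pol II) peaks that touched the gene or the 5000 bp on either side were collected by RefSeq coordinates (GRCh38). This gave 69 of the 36345 peaks of the control library and 65 of the 26387 peaks of the knockdown library, and no peak was shared by 2 of the 34 genes. The cells were U2OS, a human osteosarcoma line, transfected for 48 h with a control siRNA (NC) or with an siRNA against NKAP (NKAP_KD). Pol II was profiled by chromatin immunoprecipitation and sequencing (ChIP-seq) in 1 library of each, so differences between them have no replicate check, and values are given without p-values. No stimulus of the pathway is named for either group, and the lists carry no measure of the NKAP transcript.

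NF-kB is a family of dimeric transcription factors built from RELA, RELB, REL, p50 (from NFKB1) and p52 (from NFKB2). In resting cells IkB proteins hold the dimers in the cytoplasm. Inflammatory signals activate the IkB kinase, which marks IkB for breakdown, and the freed dimers bind kappaB sites and switch on cytokines, chemokines and survival genes. Many regulators of the pathway, among them NFKBIA, TNFAIP3, NFKB2 and RELB, are themselves targets, which gives feedback. NKAP was first named as an NF-kB activating protein, and is also known as a nuclear protein of RNA processing and as a corepressor.

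A peak in these lists is a stretch where the authors' caller found more Pol II reads than in its background. Each peak carries the authors' fold over background, and the reads at its summit could be recovered as whole numbers from the fold and the p-value. Summits held a median of 18 reads among control peaks and 19 among knockdown peaks, and at least 8 in either list. A gene without a peak may therefore still hold Pol II below the authors' threshold. Over the 11044 protein-coding genes with a start peak in both lists, the knockdown summit had a median of 0.773 times the control reads. The ratio of a gene, or of an overlapping pair of peaks, divided by that median is called its relative reads here. A value of 1 thus stands for the typical gene at its start peaks. Pairs of peaks away from starts were divided by the same median, and the typical value for such pairs was not computed. NKAP itself had start peaks of 12 reads (control) and 13 reads (knockdown).

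A start peak touched the 1000 bp on either side of a transcription start listed by RefSeq. The promoter table held 49 starts for 30 of the 34 genes. For NFKBIE, RELB, LIF and CCL2, and for any other gene without a listed start, both gene ends stood in for the start. The sequences below are the 250 bases upstream of 7 of the listed starts (RefSeq, GRCh38.p14), read 5′ to 3′ on the strand of the gene. They are shown because these starts had a peak in the knockdown list only (CCL20 and the upstream start of NFKBIZ), lay under a peak of the knockdown list that the control list lacked (NFKB2), are textbook NF-kB promoters with a peak in both lists (TNFAIP3 and NFKBIA), or belong to close paralogs with and without a peak (CXCL3 and CXCL1). Capitals mark matches to the kappaB consensus on either strand.

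NFKB2, chr10:102394328-102394577, plus strand: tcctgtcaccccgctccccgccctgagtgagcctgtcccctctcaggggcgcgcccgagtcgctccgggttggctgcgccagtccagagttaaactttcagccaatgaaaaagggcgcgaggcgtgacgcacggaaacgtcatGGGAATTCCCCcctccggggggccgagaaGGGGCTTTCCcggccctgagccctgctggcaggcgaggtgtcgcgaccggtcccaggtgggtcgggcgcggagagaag
NFKBIZ, chr3:101827740-101827989, plus strand: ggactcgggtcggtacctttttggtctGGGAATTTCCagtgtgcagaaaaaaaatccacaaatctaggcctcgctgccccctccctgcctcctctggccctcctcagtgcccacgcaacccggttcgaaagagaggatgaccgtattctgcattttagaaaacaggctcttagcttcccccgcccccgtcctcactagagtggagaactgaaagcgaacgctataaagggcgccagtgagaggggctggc
CCL20, chr2:227813592-227813841, plus strand: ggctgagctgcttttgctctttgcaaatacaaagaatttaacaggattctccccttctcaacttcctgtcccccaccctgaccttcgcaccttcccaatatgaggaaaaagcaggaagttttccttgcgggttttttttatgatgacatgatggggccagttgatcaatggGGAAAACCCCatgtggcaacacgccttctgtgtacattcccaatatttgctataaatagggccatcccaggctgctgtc
TNFAIP3, chr6:137867009-137867258, plus strand: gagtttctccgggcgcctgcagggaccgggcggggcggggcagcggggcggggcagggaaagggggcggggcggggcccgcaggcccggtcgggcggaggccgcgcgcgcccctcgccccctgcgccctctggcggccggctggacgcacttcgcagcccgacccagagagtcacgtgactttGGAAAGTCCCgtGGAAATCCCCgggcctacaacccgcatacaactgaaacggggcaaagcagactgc
NFKBIA, chr14:35404750-35404999, minus strand: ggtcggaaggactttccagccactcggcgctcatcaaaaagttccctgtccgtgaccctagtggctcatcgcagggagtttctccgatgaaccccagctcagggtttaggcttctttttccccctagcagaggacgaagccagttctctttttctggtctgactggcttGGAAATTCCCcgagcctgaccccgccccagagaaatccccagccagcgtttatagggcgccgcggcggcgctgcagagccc
CXCL3, chr4:74038690-74038939, minus strand: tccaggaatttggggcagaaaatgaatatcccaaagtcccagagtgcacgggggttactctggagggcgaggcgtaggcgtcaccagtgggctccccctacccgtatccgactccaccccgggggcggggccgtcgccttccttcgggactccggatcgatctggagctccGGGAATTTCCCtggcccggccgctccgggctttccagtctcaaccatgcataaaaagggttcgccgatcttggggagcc
CXCL1, chr4:73869143-73869392, plus strand: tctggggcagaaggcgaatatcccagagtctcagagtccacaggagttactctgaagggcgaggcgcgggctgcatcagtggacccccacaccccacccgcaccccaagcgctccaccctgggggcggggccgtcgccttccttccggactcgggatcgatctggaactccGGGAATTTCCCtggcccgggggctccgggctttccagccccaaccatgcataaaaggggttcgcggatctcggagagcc

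Matches to the kappaB consensus, a motif of 10 bases searched on both strands of these 250 bases, lay upstream of 18 of the 49 listed starts, in 16 of the 30 genes. Over all 22132 listed starts of protein-coding genes, 11.3% held one (95% Wilson interval 10.9 to 11.7). Overlapping matches were counted separately, as in NFKB2, where matches began 107, 106 and 78 bases upstream of the start. The match nearest to the start began 55 bases upstream in TNFAIP3, 81 in NFKBIA, 79 in CCL20 and 223 in NFKBIZ. Of the starts with a peak in both lists 13 of 27 held a match, of those in the knockdown list only 2 of 3, of those in the control list only 0 of 2, and of those without a peak 3 of 17, which were the starts of CXCL1, CXCL2 and BIRC3. CXCL1 and CXCL3 carry the same pair of matches, beginning 79 and 78 bases upstream, yet CXCL1 had no peak in either list. A match describes these letters and does not show that a factor bound.

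NF-kB genes carried Pol II peaks about as often as protein-coding genes in general. A peak within 5000 bp was found at 24 of the 34 genes in the control list, where 70.1% of all protein-coding genes had one, and at 25 in the knockdown list, where 66.5% did. Both lists held a peak at 23 of the 34 genes (64.7% of all genes) and neither at 8 (28.2% of all genes), which were CXCL1, CXCL2, CXCL8, IL1A, IL1B, TNF, ICAM1 and BIRC3. TNFAIP2 had peaks in the control list only, 1 of 24 control carriers, beside 7.62% of carriers over all genes. CCL2 and TRAF1 had peaks in the knockdown list only, 2 of 25 knockdown carriers, beside 2.62% over all genes. Start peaks were found at 23 genes among control peaks (59.9% of all genes) and at 24 among knockdown peaks (56.7% of all genes). TNFAIP2 had a start peak in the control list only (1 of 23, beside 7.62% over all genes), and CCL2 and CCL20 in the knockdown list only (2 of 24, beside 2.4%). Among genes whose start peak had fewer than 20 reads, 38.7% of control carriers and 10.3% of knockdown carriers over all genes had it in that list alone, against 1 of 4 and 2 of 5 of the NF-kB genes.

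**Figure D1:**
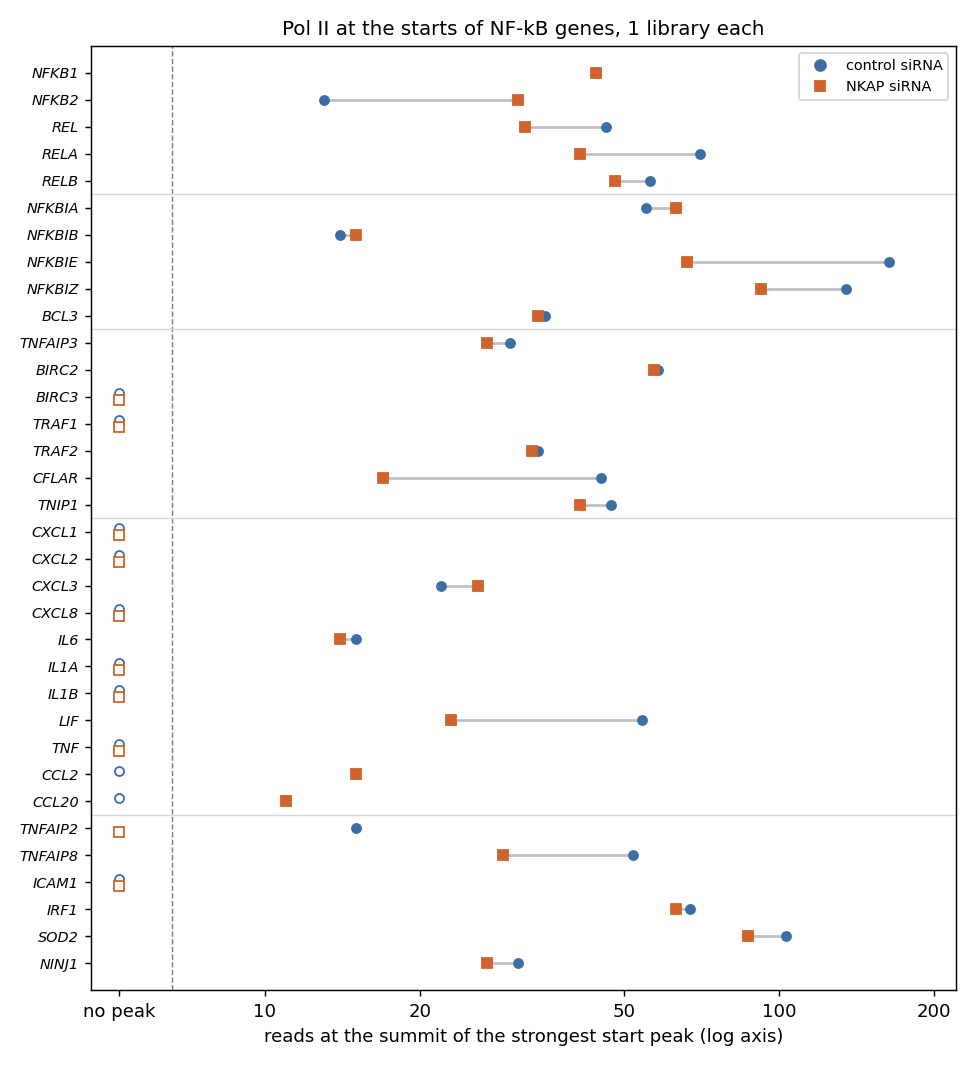
Reads at the summit of the strongest start peak (log axis) for each of the 34 genes, grouped from top to bottom into subunits, inhibitors, feedback genes and adaptors, cytokines and other targets; circles are the control library and squares the knockdown library, 1 library each, and open symbols left of the dashed line mark genes without a start peak in that list. NFKB2 has 13 and 31 reads, CCL2 and CCL20 have a knockdown symbol only, and TNFAIP2 a control symbol only. The paired symbols of NFKB2, NFKBIE, CFLAR, LIF and RELB stand for summits that lie at different places or outside the gene. Those of RELB belong to peaks on an end of CLASRP, and those of SOD2 to peaks that also cover an end of WTAP.

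Among the subunit genes, NFKB2 and RELB encode the subunits of the noncanonical pathway. The strongest start peak of NFKB2 had more reads in the knockdown than in the control library, but at a different start. RELB had more reads in the knockdown library at its lower-coordinate end and fewer at its other end. NFKB1 had equal numbers, and REL and RELA had fewer. The typical gene had 0.773 times the control reads. NFKB2 (chromosome 10, 102394110 to 102402529) had a knockdown peak of 927 bp with 31 reads and a fold of 14.8, its summit 177 bp from the first listed start, where the control list held no peak. The nearest control peak began 472 bp beyond it, 229 bp wide with 13 reads, and it touched the windows of the gene's other listed starts, so that NFKB2 counts as carrying a start peak in both lists. With equal numbers of strongest peaks that control peak dropped out and the start peak of NFKB2 stood in the knockdown list only. Set against that control peak, the 31 reads gave relative reads of 3.09 (exact 95% interval 1.57 to 6.43, counting error only), but these summits lie at different starts. The knockdown peak that overlapped the control peak had 18 reads, which gave 1.79 (0.830 to 3.98), an interval that includes 1. Inside the gene the strongest control peak had 36 reads and the knockdown peak over it 24. A pair of further knockdown peaks, with 20 reads each, lay beyond the higher-coordinate end, inside the neighbouring gene PSD, and the control list had none there.

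RELB (chromosome 19, 45001464 to 45038192) had at its lower-coordinate end a control peak of 392 bp with 15 reads and a knockdown peak of 1123 bp with 27 reads. Its relative reads there were 2.33 (1.2 to 4.71). The stronger peak at its other end, with 56 and 48 reads, lay on an end of CLASRP and set the value of RELB in the plot of start reads. NFKB1, the precursor of p50, had 44 reads at its start in each library, with folds of 15.9 and 21.96 (relative reads 1.29, 0.832 to 2.01). REL had 46 and 32 reads (0.90, 0.555 to 1.44). RELA, the transactivating partner of p50, had 70 and 41 reads (0.758, 0.503 to 1.13). The intervals of NFKB1, REL and RELA include 1, so their differences were not detectable at this depth.

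The inhibitor genes all carried Pol II in both libraries. NFKBIA (chromosome 14, 35401513 to 35404749), which encodes IkB-alpha, the main inhibitor and a rapid feedback target, had 55 reads in the control and 63 in the knockdown library, with relative reads of 1.48 (1.02 to 2.2). The folds of these NFKBIA peaks went the other way, 24.1 in the control and 19.8 in the knockdown list, over backgrounds of 1.32 and 2.16 reads. The knockdown list also held a peak of 12 reads inside NFKBIA and one of 14 reads beyond its lower-coordinate end, neither overlapped by a control peak. NFKBIB, another IkB, had 14 and 15 reads (relative reads 1.39, 0.624 to 3.10), and its knockdown peak also touched an end of SIRT2. Without peaks that touch another gene's end NFKBIB would count as control only.

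NFKBIZ, an atypical nuclear IkB that acts as a coactivator (chromosome 3, 101827990 to 101861022), showed its listed starts separately. At the downstream start both lists held a strong peak, with 135 and 92 reads and folds of 44.6 and 28.7 (relative reads 0.882, 0.669 to 1.16). At the upstream start only the knockdown list held a peak, of 505 bp with 13 reads, and the nearest control peak lay 19921 bp away. That peak also touched an end of NXPE3, so its gene cannot be told. Over all listed starts, 2.14% of those with a knockdown peak had no control peak, beside 3 of 30 for the NF-kB genes, which were the upstream NFKBIZ start, the first NFKB2 start and CCL20. The reverse held for 7.55% over all starts and for 2 of 29 here, at TNFAIP2 and at the second listed start of CFLAR.

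BCL3, a nuclear IkB that pairs with p50 and p52, had 35 and 34 reads at its start (relative reads 1.26, 0.761 to 2.08). NFKBIE, which encodes IkB-epsilon, had 38 and 34 reads at its higher-coordinate end (1.16, 0.707 to 1.89). Much stronger peaks reached its other end, with 163 and 66 reads and folds of 54.8 and 23.1. They were 12782 bp (control) and 4303 bp (knockdown) wide and touched ends of HSP90AB1 and SLC35B2, so they cannot be assigned to NFKBIE alone. Their summits lay at different places, 11038 bp (control) and 737 bp (knockdown) outside NFKBIE. These peaks nevertheless set NFKBIE's value in the counts over all start peaks (relative reads 0.524) and enter its covered length of 5719 and 5505 bp.

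Among feedback genes and signal adaptors, TNFAIP3, TNIP1, TRAF2 and BIRC2 had start peaks in both libraries whose relative reads had intervals that include 1. TNFAIP3 (chromosome 6, 137866349 to 137883312), which encodes A20, a ubiquitin editor that ends the signal, had 30 and 27 reads (relative reads 1.16, 0.666 to 2.03). The folds of 7.78 and 13.0 that the caller gave to these TNFAIP3 peaks rest on a background of 2.99 reads in the control and 1.08 in the knockdown list. TNIP1, a partner of A20, had 47 and 41 reads. TRAF2, the adaptor of the TNF receptor complex, had 34 and 33 reads, and BIRC2 (cIAP1), a ubiquitin ligase of that complex, had 58 and 57. BIRC3 (cIAP2), an inducible relative next to BIRC2, had no peak. TRAF1 (chromosome 9, 120902393 to 120929171), an inducible adaptor, had a knockdown peak of 561 bp with 11 reads, whose summit lay 2427 bp upstream of the nearest listed start. It was not counted with a flank of 2000 bp, and the nearest control peak was 3617 bp away.

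CFLAR (c-FLIP, chromosome 2, 201116164 to 201176687), which blocks caspase-8, was a long gene with more peaks in the control list (8 against 3). The first of its listed starts had 45 and 17 reads, but the 2 summits lay at different places. The control summit overlapped a second knockdown peak with 35 reads near the lower-coordinate end of CFLAR, which gave relative reads of 1.007 (0.628 to 1.60). The strongest peak of CFLAR lay inside the gene, with 66 reads and a fold of 31.3 in the control and 34 reads and a fold of 15.3 in the knockdown library (relative reads 0.667, 0.427 to 1.02). The 6 control peaks without a knockdown counterpart had 8 to 15 reads and lay inside the gene.

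Of the 11 cytokine and chemokine genes, 6 had no peak in either library, beside 28.2% of all protein-coding genes. The chemokine genes CCL2 and CCL20 had start peaks in the knockdown list alone. CCL2 (chromosome 17, 34255285 to 34257203), which encodes the monocyte attractant MCP-1, had 3 knockdown peaks. The peak over its lower-coordinate end had 14 reads and was 594 bp wide, and those below it had 15 and 12 reads. The nearest control peak lay 704624 bp away. CCL20 (chromosome 2, 227813842 to 227817556), a chemokine for CCR6-bearing cells, had a knockdown peak with 11 reads, its summit 137 bp from the start, and a stronger peak over its 3′ end in both libraries (44 and 33 reads, relative reads 0.971, 0.599 to 1.56). The peaks at these starts had 11 to 15 reads, near the minimum of 8, so control reads below the threshold cannot be told from none.

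CXCL3 was the only CXCL chemokine gene of the list with a peak. It had 22 reads in the control and 26 in the knockdown library, and the peak was 728 and 1107 bp wide (relative reads 1.53, 0.833 to 2.83). CXCL1, CXCL2 and CXCL3 are near copies of each other, and how reads with several matches were placed is not given in the sources used here. IL6 had weak start peaks, with 15 and 14 reads at the strongest summits (relative reads 1.21, 0.540 to 2.68) and 14 reads in each library where the peaks overlapped, and the peaks covered 553 and 289 bp. LIF (chromosome 22, 30240453 to 30246759), a cytokine of the IL-6 family, lay in a wide Pol II domain of the control library. Control peaks covered 14292 bp within 5000 bp of LIF and knockdown peaks 6792 bp. The strongest control summit of that domain, with 54 reads, lay 10842 bp beyond the gene's higher-coordinate end. Where both summits lay inside LIF, overlapping pairs had relative reads of 0.863 (18 and 12 reads) and 0.924 (21 and 15). Others had 1.16 (20 and 18) and 1.35 (22 and 23), and each of these intervals included 1. Control peaks of 54 and 48 reads with summits 10842 and 4336 bp outside LIF gave lower values. Against the 54 reads, knockdown peaks of 18, 23 and 29 reads gave 0.431, 0.551 and 0.695, and the intervals at 18 and 23 reads excluded 1. Against the 48 reads, a knockdown peak of 22 reads gave 0.593, and one of 13 reads had an interval of 0.174 to 0.657. These summits lay at different places, so the pairs do not compare the same site. Control peaks of 25 and 19 reads inside LIF had no knockdown counterpart.

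Among the other targets TNFAIP2 had peaks in the control list only, and the rest with peaks had them in both lists, over a shorter length in the knockdown list. TNFAIP2 (chromosome 14, 103121469 to 103137439), a TNF-induced gene, had a control peak of 15 reads with its summit 28 bp from the listed start and another of 13 reads 1419 bp upstream of it. The nearest knockdown peaks lay 13006 and 11616 bp away. IRF1 (chromosome 5, 132481609 to 132490773), a transcription factor of the interferon response, had 67 and 63 reads at its start (relative reads 1.22, 0.849 to 1.74). A control peak of 35 reads upstream of IRF1, its summit 5545 bp from the start, was overlapped by a knockdown peak only beyond the 5000 bp flank, so it adds covered length to the control alone. SOD2 (chromosome 6, 159669069 to 159762281), which encodes the mitochondrial superoxide dismutase, had 61 and 50 reads at the lowest of its listed starts (1.06, 0.715 to 1.57). Its strongest peak, with 103 and 87 reads and folds of 42.7 and 29.1, also covered an end of WTAP. TNFAIP8, a regulator of cell death, had 52 and 29 reads (0.722, 0.442 to 1.16), and NINJ1, a membrane protein of cell rupture, had 31 and 27 (1.13, 0.647 to 1.95). ICAM1, the adhesion molecule induced by TNF, had no peak.

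Set among all genes, most start peaks of the NF-kB genes had relative reads somewhat above 1, but single genes seldom lay beyond their counting error. Of the 22 genes with a start peak in both lists 15 had relative reads above 1, where 49.7% of all genes did, and their median was 1.15, with the middle of the distribution of all genes from 0.863 to 1.17 (lower and upper quartile). Relative reads of 1.5 or more were found at 2 of the 22 (NFKB2 and CXCL3), beside 5.6% of all genes. Relative reads lower by 1.5 times or more were found at 3 of the 22 (NFKBIE, LIF and CFLAR), beside 4.26%. At these 3 the control summit lay at another gene, outside the gene or away from the knockdown summit. At NFKB2 the summits also lay at different starts, and the overlapping pair had relative reads of 1.79 with an interval that includes 1. Among the other 18 genes, by these strongest start peaks, only NFKBIA had an interval that excluded 1, with its lower bound at 1.02. The fold of NFKBIA was lower in the knockdown list. RELB entered this count with the peak on an end of CLASRP (relative reads 1.11). At its other end RELB had relative reads of 2.33 (1.2 to 4.71), from 15 and 27 reads. With peaks on an end of another protein-coding gene left out, 15 of 21 NF-kB genes and 4120 of 8254 genes in all were above their median, and the NF-kB median was 1.16.

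**Figure D2:**
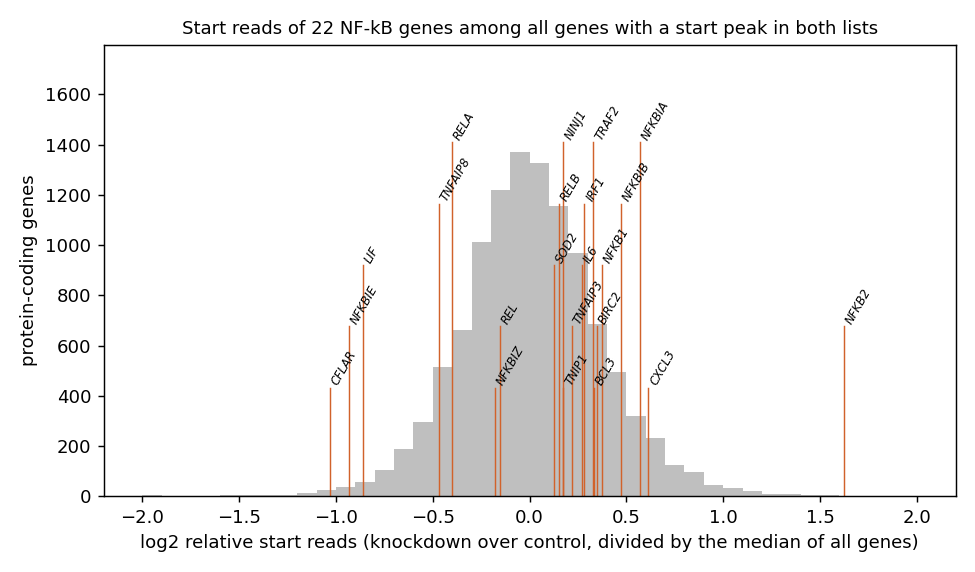
Distribution of the log2 relative start reads of the 11044 protein-coding genes with a start peak in both lists (grey bars, values beyond 2 in either direction placed in the outer bins), with the 22 NF-kB genes as labelled lines whose heights differ only to keep the names apart. Of these lines 15 lie to the right of 0, NFKB2 lies apart from the other genes at the right, and CFLAR, NFKBIE and LIF lie at the left.

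The covered length was closer between the libraries at the NF-kB genes than at genes in general. Within 5000 bp of the 34 genes, peaks covered 83992 bp in the control and 67938 bp in the knockdown list, a ratio of 0.809, where the ratio over all protein-coding genes was 0.627. A peak near several genes counts for each in the latter. Within the start windows the ratio was 0.939 for the NF-kB genes and 0.768 for all genes, and over the rest of the windows 0.709 and 0.530. The median gene with peaks in both lists had 0.955 times the control's covered length among the 23 NF-kB genes and 0.677 times among the 12932 genes in all.

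By gene, the covered length was higher by at least 1.5 times in the knockdown list at 4 of 26 NF-kB genes with any peak, beside 4.74% of all such genes, and lower by at least 1.5 times at 8 of 26, beside 50.9%. The 4 were NFKB2 (1069 and 3218 bp), CXCL3, CCL2 (0 and 1294 bp) and TRAF1 (0 and 561 bp). The 8 were LIF (14292 and 6792 bp), CFLAR (11277 and 6328 bp), SOD2 (9341 and 5919 bp), IRF1 (2738 and 1336 bp), NINJ1, TNFAIP8, TNFAIP2 (875 and 0 bp) and IL6 (553 and 289 bp). None of the 10 subunit and inhibitor genes was among the 8, while 5 of the 6 other targets were. With the strongest 10000 peaks of each list 2 of 20 were lower (IRF1 and LIF), beside 39.7% of all genes, and 3 of 20 were higher, beside 10.7%. The subunit genes had start windows covered over 5774 bp in the control and 7526 bp in the knockdown list, a ratio of 1.30, and the inhibitors 7273 and 7834 bp, a ratio of 1.08. Among the subunits only NFKB2 (229 and 1538 bp) and RELB (992 and 1744 bp, counted at both gene ends) had more covered length there in the knockdown list. NFKB1 (1433 and 1282 bp), REL (1394 and 1331 bp) and RELA (1726 and 1631 bp) had less.

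**Figure D3:**
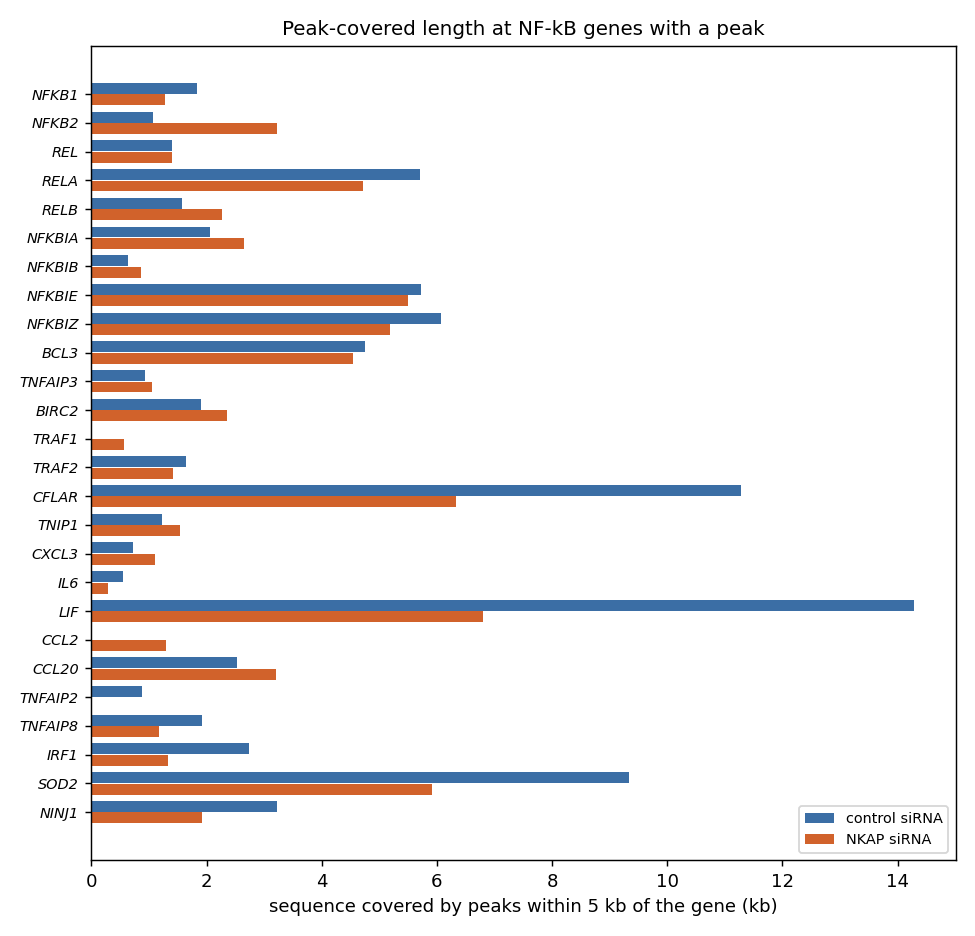
Sequence covered by peaks within 5 kb of each of the 26 NF-kB genes with a peak in either list (kb), as bars from 0 for the control (upper bar) and knockdown (lower bar) library. The knockdown bar is the longer one at NFKB2, RELB, CCL2 and TRAF1, among others, and the control bar exceeds it most at LIF and CFLAR.

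Peaks at starts found a counterpart in the other list more often than peaks elsewhere, over the whole lists as well as at the NF-kB genes. Of the 35 control peaks at NF-kB starts a knockdown peak overlapped 82.9% (95% Wilson interval 67.3 to 91.9), beside 84.0% of all control peaks at starts of protein-coding genes. Of the 34 control peaks elsewhere it overlapped 38.2% (23.9 to 55.0), beside 38.7% of all. The control shares of the NF-kB genes were thus those of the whole list. Of the 38 knockdown peaks at NF-kB starts a control peak overlapped 78.9% (63.7 to 88.9), beside 95.03% of all knockdown peaks at starts, and of the 27 elsewhere 59.3% (40.7 to 75.5), beside 73.3%. The 8 knockdown peaks at NF-kB starts without a control counterpart belonged to NFKB2, NFKBIZ, REL, CCL2, CCL20, BIRC2 and TRAF2. All but the NFKB2 peak had 11 to 15 reads. Those of TRAF2, BIRC2, REL and NFKB2 lay only 85, 132, 376 and 472 bp from a control peak of the same gene. Start peaks were also stronger and wider than the others, with a median of 37 against 15 reads and 1394 against 500 bp among the control peaks. Peaks of 1 gene are neighbours and not independent, and these differences were not tested.

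**Figure D4:**
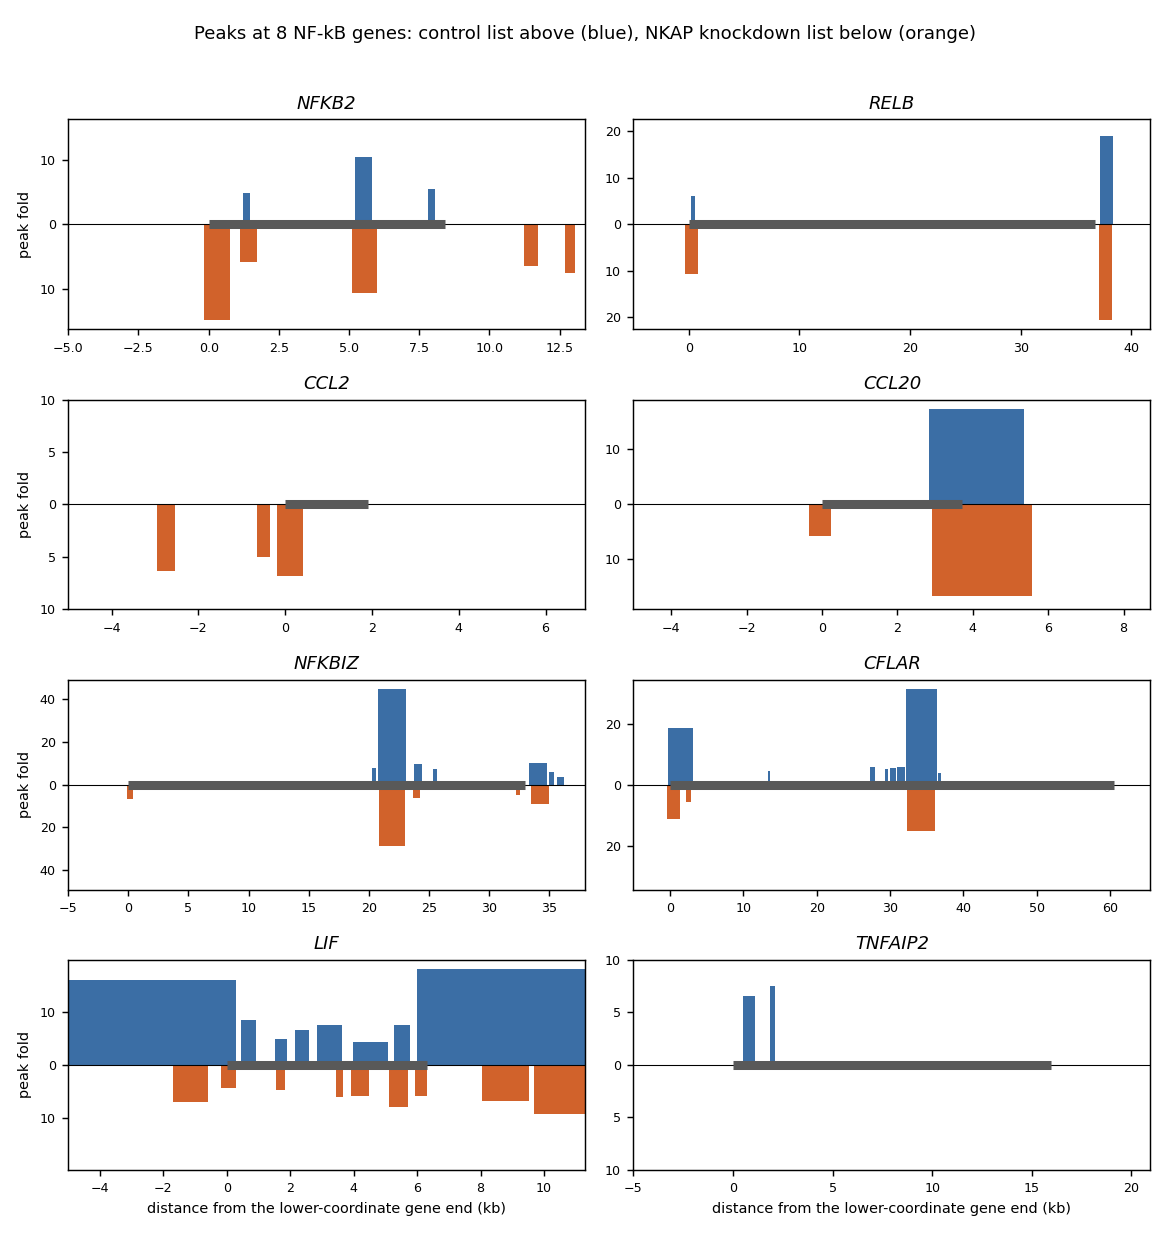
Peaks of 8 NF-kB genes as bars of their width (distance from the lower-coordinate gene end in kb) and their fold in their own list, the control list upwards and the knockdown list downwards, with the gene as a dark line and bars cut at 5 kb outside it. NFKB2, CCL2, CCL20 and NFKBIZ have a knockdown bar at the lower-coordinate end where the control list has none, TNFAIP2 has control bars only, and LIF is flanked by wide control bars.

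The genes that carry the signal to NF-kB and further targets were counted from lists that hold none of the 34 genes. Of 38 receptors, adaptors, kinases and ubiquitin regulators, 35 had a control peak and 32 a knockdown peak, beside 70.1% and 66.5% of all genes. TLR4, a receptor for bacterial lipopolysaccharide, TAB3, an adaptor of the kinase TAK1, and NKRF, an NF-kB repressing factor, were in the control list only. They had 18, 16 and 14 reads at their starts, and were 3 of 35 control carriers, beside 7.62% over all genes. None was in the knockdown list only, beside 2.62% of knockdown carriers over all genes. By start peaks, 5 of 34 control carriers were in the control list only, beside 7.62% over all genes, and none in the knockdown list only. Among the 5 were IRAK2 and IRAK4, with 14 and 18 control reads, whose knockdown peaks lay away from the listed starts. RIPK1, the kinase at the TNF receptor, had 64 and 50 reads at its start, and IRAK1, a kinase of the interleukin-1 receptor, had 65 and 55. The highest relative reads were those of CYLD, which removes ubiquitin chains (13 and 21 reads, 2.09), TNIP2 (36 and 48 reads, 1.73) and IL1R1, the interleukin-1 receptor (40 and 53 reads, 1.71). They are the top values of 29 genes, and their counting error was not computed. The 13 control reads of CYLD lie near the minimum of the lists. The median relative start reads of the 29 genes with a start peak in both lists was 1.05, and the covered length ratio 0.730. The covered length was lower by at least 1.5 times in the knockdown list at 14 of the 35 genes with any peak. The share over all such genes was 50.9%. It was higher by that much at 3 of the 35 (CYLD, TRAF3 and TRAF5), beside 4.74%.

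Of 27 further targets, 16 had a peak in the control and 15 in the knockdown list, beside 70.1% and 66.5% of all genes. CSF2, which encodes the growth factor GM-CSF, was in the knockdown list only, with 14 reads at its start. That was 1 of 15 knockdown carriers, beside 2.62% over all genes. IL15, a cytokine (12 reads at a gene end), and CX3CL1, a chemokine, were in the control list only, 2 of 16 carriers, beside 7.62%. VCAM1, SELE, CCL5, CXCL5, CXCL6 and CXCL10, which encode adhesion molecules and chemokines, were among the 10 genes of this list without a peak. GADD45B, a stress gene, had the most reads of this list at its start, 143 and 92. CSF1, which encodes a macrophage growth factor and has no listed start, had 22 and 28 at its gene ends. The median relative start reads of the 11 genes with a start peak in both lists was 1.19, and the covered length ratio of the list was 0.951. BCL2L1 alone held 20765 of the 70889 bp covered in the control list. In the knockdown list it held 28807 of 67438 bp. The median gene of this list with peaks in both libraries had 0.756 times the control's covered length. Covered length was lower by at least 1.5 times in the knockdown list at 8 of the 17 with any peak. The share over all such genes was 50.9%. Covered length was higher by that much at 2 of the 17, beside 4.74%.

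Markers of the cell type and of other cell types were counted by peaks within 5000 bp and by start peaks. Of 12 osteosarcoma and mesenchymal markers 10 had a peak in each list, among them RUNX2, SPARC and VIM, 9 had a start peak in each, and COL1A2 and TWIST1 had none. Their covered length ratio was 0.471 and their median relative start reads 0.773 over 9 genes. COL1A1, which has no listed start, had 85 and 22 reads at the strongest peaks on its gene ends. Peaks within 5000 bp were found at 6 of 10 myeloid markers in each list, at 2 of 6 lymphoid markers in each, at 3 (control) and 4 (knockdown) of 5 endothelial markers and at 2 (control) and 1 (knockdown) of 6 epithelial markers. Start peaks were found at 2 of the 10 myeloid markers in each list (CD68 and SPI1) and at none of the lymphoid, endothelial and epithelial markers. The 4 myeloid markers without a peak were CD14, FCER1G, ITGAM and LYZ. Whether the lower values of the mesenchymal markers bear on the NF-kB genes was not tested.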

How the data were processed

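Pol II ChIP-seq of U2OS cells was analysed from the peak lists of 1 control and 1 NKAP knockdown library. The labels name 4 samples, and the input libraries (sheared chromatin without antibody) were not analysed here. Per the submitters' processing notes, the authors used bcl2fastq 2.17, Trimmomatic 0.33, Bowtie 1.1.2 and MACS2 2.1.0 on hg38, with settings not given in the sources used here. The deposited values per peak are its position, a score (10 times the −log10 q-value without decimals), the fold over background as a ratio, and the −log10 of the p-value and q-value at the summit. Each list came from 1 library and not from pooled samples.

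Only chromosomes 1 to 22 and X were kept, which left out 5.75% of control and 5.47% of knockdown peaks. Reads at summits were recovered from the deposited fold and p-value, as the fold is (pileup + 1)/(background + 1) and p a Poisson tail. In the knockdown list 1 read counted as 0.926 in the pileup. Whole reads within 0.01 came out for 100% of peaks in each list. On simulated peaks 99.97% of the control reads (3000 peaks) and 100% of the knockdown reads (3000 peaks) were exact. Gene coordinates came from the RefSeq gene table and starts from the RefSeq promoter table, and all 34 genes matched by symbol. Of the protein-coding genes 15812 had a listed start, and both ends were used for the other 4162. Overlap meant at least 1 bp. Intervals of shares are Wilson and those of read ratios exact (Clopper-Pearson). Both cover counting error only.

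All 34 genes were described, by role, and from the further lists the genes in 1 list only and some of the highest. The members, lists and rules were chosen with earlier results of these data known. The comparison of starts with remaining sequence and the choice of printed sequences were made after the values were seen. Python 3.11.15, pandas 2.3.3 and scipy 1.17.1 were used.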

Additional observations from a re-analysis of the deposited data

How the results depend on the processing

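Of 84 values recomputed under other settings, 56 stayed within 1.5 times (counts) or equal at the printed digits (ratios). The covered length ratio within start windows, 0.939, crossed 1 when the summit had to lie in the window (1.006) and with start windows of 500 bp (1.078). The median covered length ratio of 0.955 became 1.004 with the 2000 bp flank, the summit rule and equal numbers. These recomputations were added after the data were seen. With a flank of 2000 bp, with the gene alone and with the strongest 10000 peaks of each list, the genes in the knockdown list only numbered 1 in place of 2. In the first 2 settings this was CCL2, and in the third TNFAIP3. The genes in the control list only numbered 0 with the strongest 10000 peaks and 2 (TNFAIP2 and NFKBIB) without peaks on an end of another protein-coding gene. The covered length ratio of 0.809 became 0.822 with the 2000 bp flank, 0.802 with the gene alone, 0.93 when the summit had to lie in the window, 0.885 with equal numbers of strongest peaks, 0.795 with the strongest 10000 and 0.803 without peaks on other genes' ends. The summit rule removes, among others, wide control peaks at LIF and NFKBIE whose summits lie outside the window. Over all protein-coding genes the ratio of 0.627 became 0.630 under that rule, 0.696 with equal numbers and 0.701 with the strongest 10000, where the NF-kB genes lay nearest to all genes among these settings. The genes with covered length lower by 1.5 times numbered 2 in place of 8 with the strongest 10000 peaks. The median relative reads of 1.13 for the strongest peak near each gene became 1.15 at starts and, in a setting chosen after the data were seen, 1.16 at starts without peaks on other genes' ends. The cause of the other differences was not tested. The genes in 1 list only (TNFAIP2, CCL2 and TRAF1) rest on peaks of 11 to 15 reads, where depth limits what can be told. No paired analysis was possible because each group held 1 library.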
